A study of Mus musculus with 3 samples.

Results

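The DNA replication machinery was followed through 43 genes of the core pathway: those that license origins, form and activate the MCM helicase, synthesise DNA, load the sliding clamp, supply nucleotides, mature and coat single strands, and assemble new chromatin. The genes were listed by name, and each probe was assigned to them by its RefSeq accession. All 43 genes were on the array, through 47 probes of 39429, and all 43 were among the 14710 genes that could be tested, of 21153 gene symbols in all. Embryoid bodies, which are aggregates of differentiating embryonic stem cells, were taken at day 8 of cardiac differentiation. One group was Hopx-/- and was grown with 12.5 µM XAV939, a tankyrase inhibitor that lowers Wnt signalling through β-catenin. The other group was Hopx+/-, with no XAV939 named in its labels. Each of 3 arrays, which the series' design text calls biological replicates, compared RNA of one group directly with RNA of the other in 2 colours.

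Both groups came from stem cell lines made from mouse blastocysts on STO feeder cells, with a MEK1 inhibitor during derivation, and later kept on inactivated embryonic fibroblasts with leukemia inhibitory factor. Both were differentiated in hanging drops without that factor, then in serum-free medium with VEGF, bFGF, FGF10 and ascorbic acid. The labels do not say how many lines were used, whether each was a single clone, or whether the heterozygous cultures received a vehicle. The heterozygous group carries 1 null Hopx allele itself. The inhibitor was given to the null group alone, so genotype and inhibitor cannot be told apart. Bulk RNA was measured, so fewer cells of a type and less RNA per cell cannot be told apart either.

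Every value below is a log2 ratio of null plus XAV939 over heterozygous: above 0 means a higher RNA level in the null cultures, and 1 means a 2-fold difference. A gene is called higher or lower where the Benjamini-Hochberg adjusted p from limma, over all 14710 genes, was under 0.05. The direction is likely and not settled. The labels put null RNA in Cy5 on all 3 arrays, yet before any turning, over all probes, replicate 3 had a correlation of -0.79 with replicate 1 and of -0.89 with replicate 2. Between replicates 1 and 2 it was 0.82. The sign of replicate 3 was reversed here to match the processed values that the authors deposited. Null RNA would then be in Cy3 on replicate 3 and in Cy5 on replicates 1 and 2. A departure of replicate 3 thus cannot be told apart from a dye effect on a gene, which the fit does not model. If the overall direction were the opposite, every ratio below would change sign and the genes called higher would be called lower. With replicate 3 left as labelled, no gene of the 14710 was called in limma (13 higher and 27 lower at an unadjusted p under 0.05). Of the 43 replication genes, 42 then had a mean ratio above 0, Rfc2 being the exception at -0.17. Each of the 43 was above 0 on replicates 1 and 2 and below 0 on replicate 3 as labelled. Such a mean sets 2 arrays against 1 and cannot show the direction.

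Hopx itself, the gene deleted in the null line, was at -2.65, -2.75 and -2.73 on replicates 1, 2 and 3 (mean -2.71 ± 0.05, SD, n = 3), and a second probe gave -2.25 ± 0.15. The labels do not say which part of Hopx is deleted, so these probes may lie outside it and then check nothing. The share of probes well above background ran from 56.6% to 68.0% over the channels and arrays. Replicate 1 was on one slide and replicates 2 and 3 on another. All 43 replication genes were well above background in both groups on all 3 arrays. A single saturated replication gene spot was seen, that of Mcm6 in the null channel of 1 array.

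Replication of DNA starts when the origin recognition complex, with Cdc6 and Cdt1, loads the MCM ring onto DNA. The loaded ring is later activated by Cdc45 and the GINS complex to become the working helicase. Polymerase alpha with primase then lays primers, polymerases epsilon and delta extend them, and PCNA, loaded by replication factor C, tethers the polymerases. Many of these genes are transcribed as cells enter S phase under E2F factors, which retinoblastoma family proteins hold in check. Pluripotent stem cells divide fast and spend much of their cycle in S phase, whereas many differentiating cells, cardiomyocytes among them, slow their division.

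Because E2F control of these genes is known, their promoters were searched for it. RefSeq promoter windows, on build GRCm38.p6, cover 250 bases before and 50 after an annotated start. They were found for 35 of the 43 genes, in 41 windows. Gins1, Gins2, Gins4, Gmnn, Mcm4, Pole, Prim2 and Rfc2 had no entry. The E2F motif was searched in 4 forms (TTTCCCGC, TTTCGCGC, TTTGCCGC and TTTGGCGC) on both strands. The 7 windows below show the 180 bases before the start, 5′ to 3′ on the gene's strand. The first 6 genes, Mcm5, Cdc6, Mcm7, Pola1, Mcm6 and Orc1, are those of highest ratio with a match wholly before the start. The last, Dut, is the gene of highest ratio with an entry and no match. Capitals mark the motif matches.

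The windows are chr8:75109329-75109508 for Mcm5, chr11:98907971-98908150 for Cdc6, chr5:138171884-138172063 for Mcm7, chrX:93632156-93632335 for Pola1, chr1:128359706-128359885 for Mcm6, chr4:108579274-108579453 for Orc1 and chr2:125247335-125247514 for Dut. Mcm7, Pola1 and Mcm6 are read from the minus strand and the others from the plus strand.
Mcm5: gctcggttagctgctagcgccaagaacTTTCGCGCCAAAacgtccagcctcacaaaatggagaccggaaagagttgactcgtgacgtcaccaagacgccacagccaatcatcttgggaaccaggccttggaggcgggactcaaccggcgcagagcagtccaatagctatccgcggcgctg
Cdc6: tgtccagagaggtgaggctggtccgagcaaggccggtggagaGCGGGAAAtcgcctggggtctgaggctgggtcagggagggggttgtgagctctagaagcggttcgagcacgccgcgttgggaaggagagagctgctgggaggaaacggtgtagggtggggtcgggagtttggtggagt
Mcm7: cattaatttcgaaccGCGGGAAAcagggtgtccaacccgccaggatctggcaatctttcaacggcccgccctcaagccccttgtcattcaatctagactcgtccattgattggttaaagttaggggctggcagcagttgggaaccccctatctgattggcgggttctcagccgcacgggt
Pola1: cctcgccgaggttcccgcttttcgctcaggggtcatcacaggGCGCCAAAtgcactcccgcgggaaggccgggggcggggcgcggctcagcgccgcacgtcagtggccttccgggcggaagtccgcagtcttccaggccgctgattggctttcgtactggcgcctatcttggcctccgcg
Mcm6: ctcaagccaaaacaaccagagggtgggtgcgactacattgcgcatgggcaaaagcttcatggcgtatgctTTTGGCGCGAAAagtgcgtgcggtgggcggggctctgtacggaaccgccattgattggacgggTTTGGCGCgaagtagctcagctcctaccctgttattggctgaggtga
Orc1: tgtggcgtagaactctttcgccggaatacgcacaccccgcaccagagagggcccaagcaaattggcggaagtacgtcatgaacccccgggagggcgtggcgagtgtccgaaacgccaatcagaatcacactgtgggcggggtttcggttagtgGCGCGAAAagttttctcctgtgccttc
Dut: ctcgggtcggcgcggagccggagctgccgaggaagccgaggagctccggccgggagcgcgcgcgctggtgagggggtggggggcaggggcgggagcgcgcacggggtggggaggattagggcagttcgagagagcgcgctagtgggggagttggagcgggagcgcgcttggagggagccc

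In Mcm5 and in Mcm6 a match on the gene's strand overlapped one on the other strand, so that the capitals form 1 longer run, beginning at base -153 from the start in Mcm5 and at -110 in Mcm6. Mcm6 held another match at -47. The single matches of Cdc6 and of Pola1 began at -138 in both genes. Mcm7 had a match at -165 and another after its start, and Orc1 had one at -27. At least 1 form was found in 13 of the 35 genes with an entry (37.1%), against 704 of 27025 genes in the whole promoter table (2.60%). The replication genes' windows had a mean GC content of 58.2%, against 53.8% over all windows, and the part of base composition in the motif share was not tested.

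**Figure D1:**
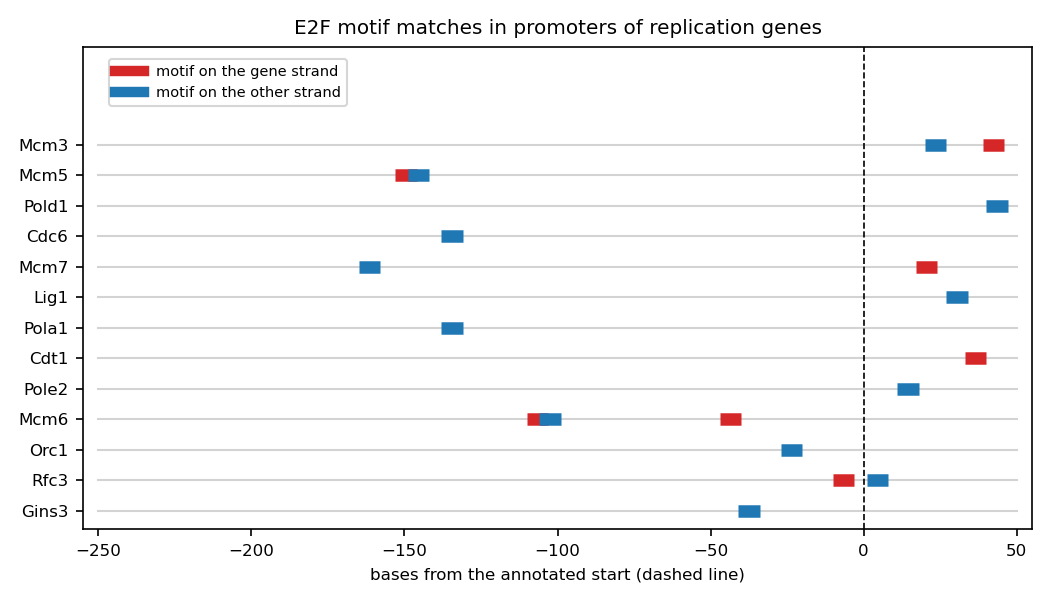
Positions of the E2F motif matches in the 13 replication genes that hold one, ordered from the highest ratio (Mcm3) to the lowest (Gins3); the x axis is bases from the annotated start, red marks the gene's strand and blue the other. Matches lie on both sides of the start, 11 of the 19 wholly before it, and 5 genes hold matches after it alone.

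The matches were spread unevenly over the roles. They were found in 4 of 5 MCM genes, 3 of 5 licensing genes and 3 of 6 polymerase genes with an entry, but in 0 of 5 nucleotide supply genes and 0 of 2 chromatin assembly genes. The 13 genes with a match had a median ratio of 1.17, from 0.35 to 2.19. The 22 without had a median of 0.92, from 0.44 to 2.14, so the ranges overlapped almost entirely. The CHR element of cell cycle genes (TTTGAA or TTCGAA, both strands) was in 7 of 35 (20.0%) against 21.7% of all genes. The CCAAT box (CCAAT, both strands), bound by the factor NF-Y, was in 22 of 35 (62.9%) against 41.1% of all genes. Over the cell type marker lists given below, its share ran from 0 of 5 endothelial genes to 9 of 14 cardiomyocyte genes (64.3%). It was in 5 of 8 endoderm genes (62.5%). Cardiomyocyte and endoderm markers were all called lower, so such a share was not particular to the replication genes. A match is a run of letters and not a measured binding site. Only exact forms within the short windows were searched, so a gene without a match may still have an E2F site.

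RNA levels of 42 of the 43 replication genes were called higher in null cultures with XAV939, and 0 were called lower. Of all genes tested, 31.5% were called higher and 33.0% lower, so a call by itself was common. Higher calls made up 48.9% of all calls, and 60.0% under median centring, which raised the median of all genes by 0.11. Among the 2970 genes at least as bright as the median replication gene, 32.5% were called higher. Of the 43 genes, 22 were called and higher by 1 or more on the log2 scale, against 7.78% of all genes. The median ratio of the 43 was 1.01, a fold of 2.01, and that of all genes was -0.01. The median was 0.99 on replicate 1, alone on its slide, and 0.99 over replicates 2 and 3 on the other slide, where 42 were called higher and Gins4 was the exception. All 43 had the same sign on all 3 arrays, but so had 9405 of the 9487 genes called in either direction. Of the 43, 27 lay at or above the 90th percentile of all genes' ratios, which was 0.88.

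**Figure D2:**
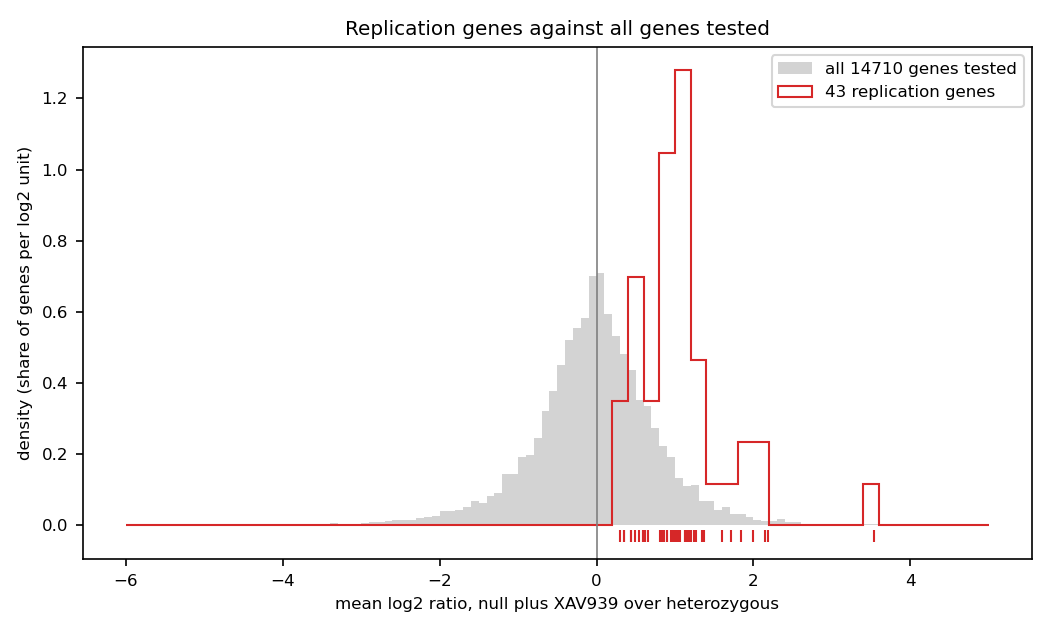
Density of the mean log2 ratio over 3 arrays for all 14710 genes tested (grey) and for the 43 replication genes (red line, with 1 red tick for each gene). The replication genes run from 0.30 to 3.53 and none lies below 0, whereas all genes are centred near 0.

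The size of the difference was far from uniform. Prim2 stood highest, at rank 12 of all genes tested, and Gins4 lowest at 0.30. The adjusted p of the 42 called genes ran from 3.79e-07 to 0.0348. The SD over the 3 arrays was below the median SD of all genes, 0.17, for 22 of the 43. Replicate 3 gave the lowest of the 3 values for 20 genes and the highest for 11. Across the 43 genes the ratios correlated at 0.96 between replicates 1 and 2, at 0.86 between 1 and 3 and at 0.86 between 2 and 3; replicates 2 and 3 share a slide.

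**Figure D3:**
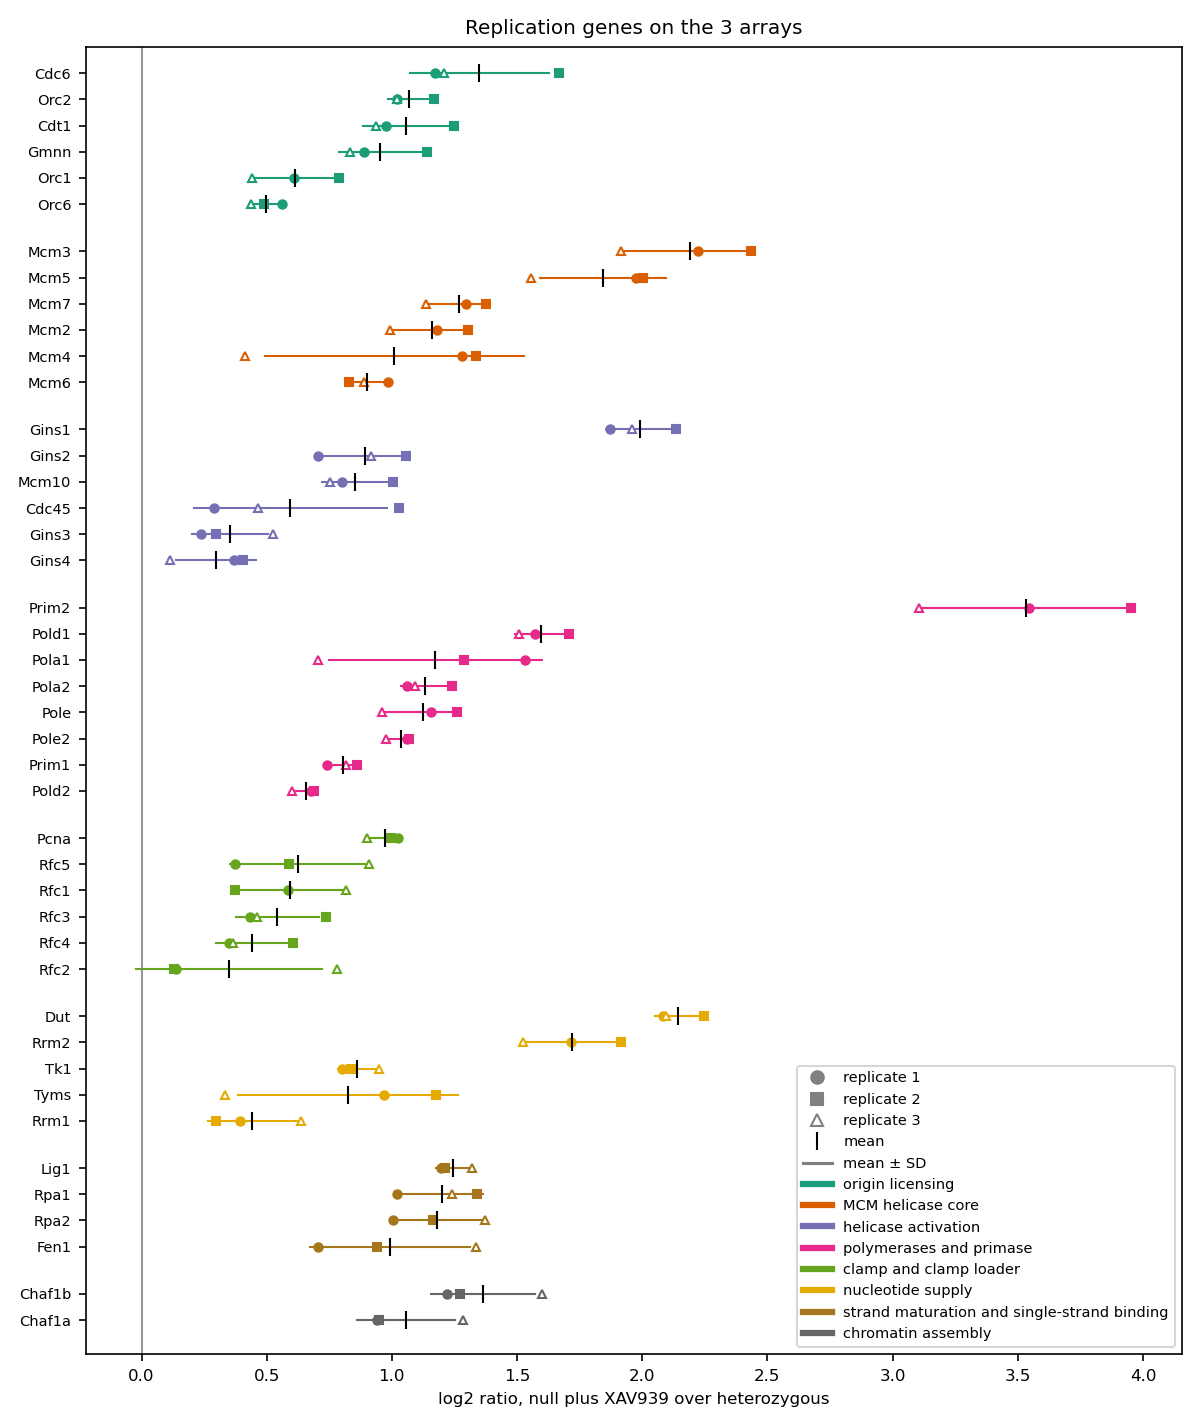
Log2 ratio of each of the 43 replication genes on each array (filled circle, filled square and open triangle for replicates 1, 2 and 3), with the mean (black bar) and the mean ± SD (line), grouped by role. Every point lies above 0, Prim2 stands apart at 3.11 to 3.95, and the means nearest 0 are those of Gins4, Rfc2 and Gins3.

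Origin licensing genes were called higher in 6 of 6 cases, with a median of 1.00. Cdc6, the ATPase that recruits MCM rings to origins, led them with ratios of 1.17, 1.67 and 1.21 on replicates 1, 2 and 3. Its mean was 1.35 ± 0.28 (SD, n = 3; adjusted p 2.07e-05), and replicate 2 was the high value. A second Cdc6 probe gave 0.51, 0.59 and 0.93 (mean 0.68 ± 0.22), so the 2 probes gave one direction and different sizes. With marked local backgrounds kept, the first probe was at 0.79 and still called. Orc6, the smallest subunit of the origin recognition complex, had the lowest ratios of the group, at 0.56, 0.49 and 0.44 (mean 0.50 ± 0.06; adjusted p 0.00197). Cdc6 exceeded Orc6 on every array, by 0.85 ± 0.29.

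Orc2 (1.07 ± 0.09), another subunit of that complex, and the MCM loader Cdt1 (1.05 ± 0.17) were each about 2-fold higher. Gmnn encodes geminin, which binds Cdt1 and blocks relicensing, and it rose alongside its target at 0.95 ± 0.16. The inhibitor of licensing was thus higher together with the loaders. Orc1, the subunit that in many cells is limited to part of the cycle, was at 0.61 ± 0.17. These 3 subunits of the origin recognition complex had a median of 0.61, below Cdc6 and Cdt1. Other subunits of the complex, outside the 43 genes, were lower still. Orc5 was called higher at 0.52 ± 0.09, and Orc3 (0.11 ± 0.13) and Orc4 (0.02 ± 0.09) were not called.

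The 6 subunits of the MCM ring were all called higher, with a median of 1.21. Mcm3 was at 2.22, 2.43 and 1.91 (mean 2.19 ± 0.26; adjusted p 1.26e-06), a 4.56-fold difference. Mcm5, its neighbour in the ring, was at 1.98, 2.00 and 1.55 (mean 1.84 ± 0.25). These 2 subunits stood above the other 4 on every array. Mcm7 was at 1.29, 1.38 and 1.14 (mean 1.27 ± 0.12), and Mcm2 had a mean of 1.16 ± 0.16.

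Mcm6 had the lowest mean of the ring, from ratios of 0.99, 0.83 and 0.89 (mean 0.90 ± 0.08; adjusted p 6.07e-05). Its null signal was the saturated one on 1 array. Mcm3 exceeded Mcm6 by 1.29 ± 0.29. Mcm4 varied most among the 43 genes, at 1.28, 1.34 and 0.41 (mean 1.01 ± 0.52), with replicate 3 far below the other two. The Mcm4 call held without replicate 3, where its mean was 1.31.

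Genes that activate the helicase were called higher in 6 of 6 cases with a median of 0.72, and they held the widest contrast within a complex outside the polymerases. Gins1 was at 1.87, 2.14 and 1.96 (mean 1.99 ± 0.13; adjusted p 9.35e-07). Gins4, another subunit of the same 4-part complex, was at 0.37, 0.41 and 0.12 (mean 0.30 ± 0.16; adjusted p 0.0348). The values of the 2 subunits did not overlap, and Gins1 exceeded Gins4 by 1.69 ± 0.17. Gins2 was between them at 0.89 ± 0.18 and Gins3 near Gins4 at 0.35 ± 0.15.

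Mcm10, a replication initiation factor, had a mean of 0.85 ± 0.13. Cdc45, which joins the MCM ring and GINS in the helicase, was scattered, at 0.29, 1.03 and 0.46 (mean 0.59 ± 0.39; adjusted p 0.00597). Without replicate 2, Cdc45, Gins3, Gins4 and Rfc4 were no longer called, and Gins4 was not called without replicate 1 either. Cdc45, Gins3 and Gins4 were also not called under median centring or in the authors' processed values, and Gins4 was called in only 5 of 12 alternatives.

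All 8 listed genes of the replicative polymerases and primase were called higher, with a median of 1.13. Of further polymerase subunits given below, Pold3 was called higher and Pold4 lower, and Pole3 and Pole4 were not called. Prim2, the large subunit of primase, was at 3.55, 3.95 and 3.11 (mean 3.53 ± 0.42; adjusted p 3.79e-07). This 11.6-fold difference was the largest of the 43. Its size depended on the processing, from a log2 ratio of 2.72 with marked backgrounds kept to 4.04 in the Feature Extraction log ratio. Prim1, the catalytic subunit that makes the RNA primer together with Prim2, was at 0.81 ± 0.06. The 2 subunits of one enzyme thus differed by far more than either varied over the arrays, and 1 probe stood for each. The partners of primase, Pola1 and Pola2, were at 1.17 ± 0.42 and 1.13 ± 0.10, with Pola1 lowest on replicate 3 at 0.70. With marked backgrounds kept, Pola2 was at 0.67.

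Polymerase delta, which makes most of the lagging strand, was uneven as well. Its catalytic subunit Pold1 was at 1.57, 1.71 and 1.51 (mean 1.59 ± 0.10; adjusted p 2.53e-06). Pold2, an accessory subunit, had the lowest ratios of the group, at 0.68, 0.69 and 0.60 (mean 0.66 ± 0.05; adjusted p 0.000378). Of polymerase epsilon, which makes most of the leading strand, the catalytic subunit Pole was at 1.13 ± 0.15 and Pole2 at 1.04 ± 0.05. A second Pole probe was not well above background in either group on any array and was not tested. Prim2 exceeded Pold2 by 2.88 ± 0.38.

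The clamp and its loader had a median of 0.57, with 5 of 6 genes called higher. This was the lowest of the 8 roles over the gene means, but on replicate 3 (0.64 against 0.80) and in the authors' processed values (0.50 against 0.53) helicase activation was lower. Pcna, the ring that tethers polymerases to DNA, was at 1.02, 1.00 and 0.90 (mean 0.97 ± 0.07; adjusted p 3.73e-05), near the median of all 43. The 5 loader subunits all lay below it. Rfc2 was the one replication gene not called, at 0.14, 0.13 and 0.78 (mean 0.35 ± 0.37; adjusted p 0.0561). Its replicates 1 and 2 lay near 0 and replicate 3 well above them. Pcna exceeded Rfc2 by 0.87 or more on replicates 1 and 2 and by 0.12 on replicate 3.

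The other loader subunits were called higher by less than 2-fold. Rfc5 was at 0.62 ± 0.27, the large subunit Rfc1 at 0.59 ± 0.22, Rfc3 at 0.54 ± 0.17 and Rfc4 at 0.44 ± 0.14. A second Rfc4 probe gave 0.79 ± 0.29. The median of the loader was 0.37, 0.59 and 0.78 on replicates 1, 2 and 3. It was thus highest on the array where the MCM median, at 1.29, 1.36 and 1.06, was lowest.

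Nucleotide supply genes were called higher in 5 of 5 cases, with a median of 0.86. Dut, which breaks down dUTP and so keeps uracil out of DNA, was at 2.08, 2.25 and 2.10 (mean 2.14 ± 0.09; adjusted p 5.46e-07), with little scatter. Rrm2, the regulated subunit of ribonucleotide reductase, followed at 1.72, 1.91 and 1.53 (mean 1.72 ± 0.19; adjusted p 2.84e-06). Its partner Rrm1, the large subunit of that enzyme, was the lowest of the group at 0.39, 0.30 and 0.64 (mean 0.44 ± 0.18; adjusted p 0.0063). Dut exceeded Rrm1 by 1.70 ± 0.25.

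Tk1, the cytosolic thymidine kinase of the salvage route, was at 0.86 ± 0.08. Tyms, the thymidylate synthase that makes dTMP from dUMP, had a similar mean with wide scatter, at 0.97, 1.18 and 0.33 (mean 0.83 ± 0.44). Replicate 3 was the low value, as for Mcm4 and Pola1. With marked backgrounds kept Tyms was at 0.43. Without replicate 3 the median of the group was 1.07.

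The 4 listed genes for strand maturation and single-strand binding were all called higher, with a median of 1.19. Their range was the narrowest of the roles with over 2 genes. Lig1, the ligase that seals Okazaki fragments, was at 1.20, 1.21 and 1.32 (mean 1.24 ± 0.07; adjusted p 9.04e-06). Fen1, the nuclease that trims their flaps, was the lowest at 0.70, 0.94 and 1.34 (mean 0.99 ± 0.32; adjusted p 0.000184). The 2 genes were not separated, since Fen1 was below Lig1 on replicates 1 and 2 and slightly above it on replicate 3. Rpa1 and Rpa2, subunits of the protein that coats single strands, were at 1.20 ± 0.16 and 1.18 ± 0.18. Rpa3, another subunit of that protein and outside the 43 genes, was called higher at 0.40 ± 0.06, well below them. The narrow range thus holds for the listed genes alone.

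Both large subunits of chromatin assembly factor 1, which places histones on new DNA, were called higher. Chaf1b was at 1.22, 1.27 and 1.60 (mean 1.36 ± 0.21; adjusted p 1.15e-05), and a second probe gave 1.29 ± 0.41. Chaf1a was at 0.94, 0.95 and 1.28 (mean 1.06 ± 0.20; adjusted p 4.65e-05). The difference between the subunits was steady, at 0.31 ± 0.02. In both genes replicate 3 was the high value.

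The roles were then compared by the medians of their genes on each array, as a description without a test. Since 3 arrays allow no exact sign-flip p under 0.25, the spread over arrays is given. The MCM median exceeded that of the clamp group on every array, by 0.88, 0.76 and 0.27 (mean 0.64 ± 0.33). Polymerases exceeded the clamp group by 0.70, 0.65 and 0.17 (mean 0.51 ± 0.29), and licensing genes by 0.53, 0.56 and 0.09 (mean 0.39 ± 0.26). The clamp group minus the nucleotide supply group was -0.57, -0.58 and -0.15 (mean -0.43 ± 0.24). Of these 5 roles the clamp group was the lowest on each array, and by much less on replicate 3.

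The other roles lay closer together. MCM genes exceeded polymerases by 0.13 ± 0.04 and licensing genes fell short of MCM genes, at -0.24 ± 0.10 (licensing minus MCM). Licensing and nucleotide supply could not be ordered: their medians of gene means were 1.00 and 0.86, whereas the medians taken on each array differed by -0.04 ± 0.02 the other way. Under median centring the MCM, clamp and nucleotide supply medians were 1.51, 0.82 and 1.11.

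**Figure D4:**
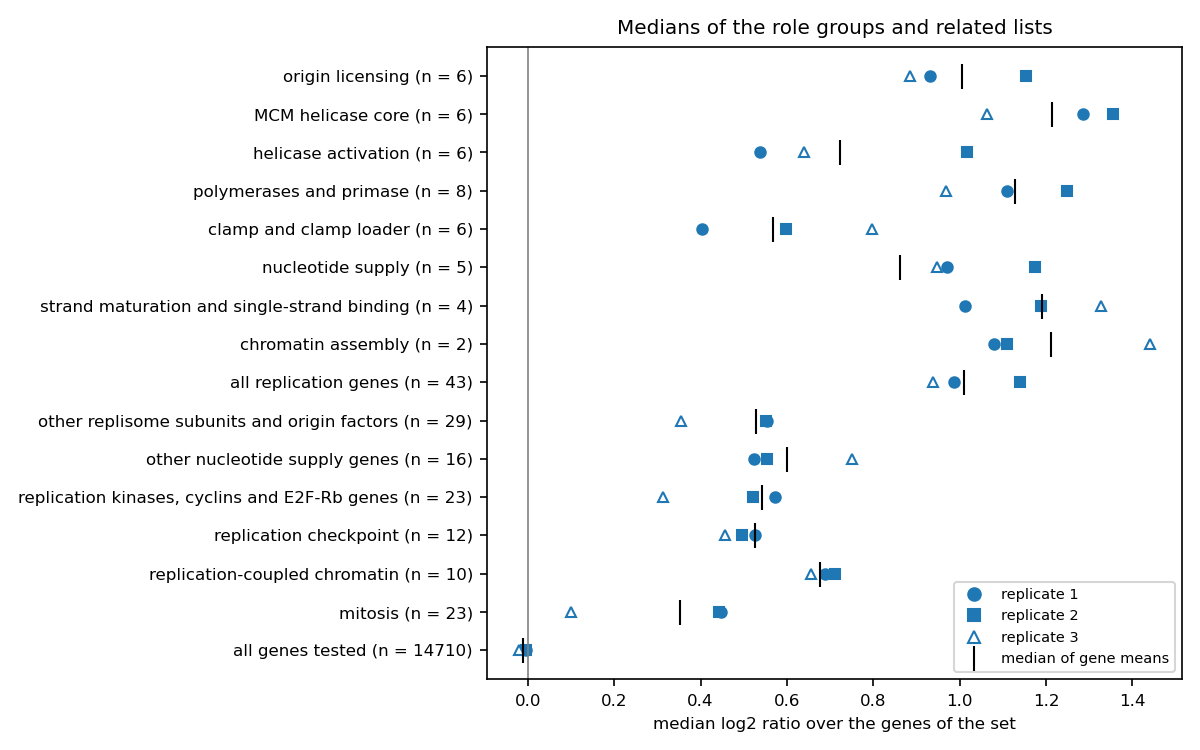
Median log2 ratio of the genes of each role group and related list on each array (symbols for replicates 1, 2 and 3) and over the gene means (black bar). Each role and list has its 3 points above 0, helicase activation has the widest gap between arrays, and all genes tested sit near 0.

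Other genes of replication were read from lists of the pathway. Of 29 further replisome subunits and origin factors, 19 were called higher and 1 lower, with a median of 0.53. Pold3 (1.75 ± 0.27), a polymerase delta subunit, Chtf8 (1.62 ± 0.07), of an alternative clamp loader, and the helicase Recql4 (1.46 ± 0.04) were the highest. Pold4, the smallest subunit of polymerase delta, was called lower at -1.49, -1.50 and -1.55 (mean -1.52 ± 0.03; adjusted p 2.76e-06). The 4 subunits of that polymerase thus ran from Pold4 at -1.52 to Pold3 at 1.75, with Pold2 and Pold1 between. Top2b, a topoisomerase, at -0.09 ± 0.35 and Pole3 at -0.11 ± 0.10 were not called. Pole3 and Pole4 (0.16 ± 0.23, not called) are the small subunits of polymerase epsilon, so that enzyme too ran from near 0 to above 1. The E2F motif was in 8 of the 25 genes of the list with a promoter entry.

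Of 16 other nucleotide supply genes tested, of 17 listed (Rrm2b was not tested), 11 were called higher and 0 lower, with a median of 0.60. The purine synthesis enzyme Gart (1.70 ± 0.26), the deaminase Dctd (1.47 ± 0.18), which makes dUMP, and the CTP synthase Ctps (1.08 ± 0.15) were highest. Cad, which carries out the first steps of pyrimidine synthesis, was at 0.03 ± 0.18, the mitochondrial thymidine kinase Tk2 at -0.03 ± 0.16 and Samhd1, which degrades dNTPs, at 0.10 ± 0.17. None of these 3 was called. The E2F motif was in 0 of 15 genes of this list with an entry, as in 0 of 5 of the nucleotide supply genes above. It was rare over the whole promoter table too, at 704 of 27025 genes, so few matches are looked for in lists of this size.

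Of 23 replication kinases, cyclins and E2F-Rb genes tested, of 24 listed (Ccne2 was not tested), 13 were called higher and 2 lower, with a median of 0.54. Cyclin E1, Ccne1, which drives entry into S phase with Cdk2, was at 1.86, 2.16 and 1.73 (mean 1.92 ± 0.22, adjusted p 1.91e-06 from limma). The kinases Cdk2 (0.15 ± 0.14) and Cdc7 (-0.04 ± 0.29) were not called. E2f1 (1.45 ± 0.15) and its partner Tfdp1 (1.48 ± 0.40) were called higher. Rb1, which restrains E2F activators, was called lower at -0.80, -0.97 and -1.05 (mean -0.94 ± 0.13; adjusted p 5.91e-05). Its relative Rbl2 was lower by less, at -0.37 ± 0.22, but the third member of that family, Rbl1, was called higher at 0.76 ± 0.38. Of the E2F members known mainly as repressors, E2f4 (1.02 ± 0.07), E2f8 (0.90 ± 0.23) and E2f7 (0.69 ± 0.19) were called higher. E2f5 (0.16 ± 0.14) and E2f6 (-0.07 ± 0.06), also of that kind, were not called. The list thus held activators and repressors of the same genes among those higher. The E2F motif was in 8 of its 18 genes with a promoter entry.

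Replication checkpoint genes were called higher in 7 of 12 cases and lower in 0, with a median of 0.53. Fork protection genes Tipin (1.21 ± 0.24) and Timeless (0.84 ± 0.14), and the ATR activator Etaa1 (0.84 ± 0.15), were highest. Atrip (0.08 ± 0.36), the partner of ATR, and Rad17 (0.07 ± 0.36), a checkpoint clamp loader, were not called, and replicate 3 lay away from the other two in both. Chek1, the checkpoint kinase, was at 0.01 ± 0.11, and its probe was well above background in the null channel on 1 of 3 arrays. The E2F motif was in 1 of 9 genes of this list with an entry.

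All 10 genes of replication-coupled chromatin were called higher, with a median of 0.68. The histone chaperone Nasp (1.54 ± 0.22), the maintenance methylation factor Uhrf1 (1.35 ± 0.06) and the remodeller Hells (1.29 ± 0.06) led. The acetyltransferase Hat1 (0.50 ± 0.04), the FACT subunit Supt16 (0.38 ± 0.15) and the chaperone Asf1a (0.31 ± 0.20) were lowest. The E2F motif was in 4 of these 10 promoters.

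Mitosis genes, which act after replication, were called higher in 14 of 23 cases tested, of 24 listed (Aurkb was not tested), and lower in 0. Their median was 0.35, and it was 0.45, 0.44 and 0.10 on replicates 1, 2 and 3. The spindle motor Kif11 (1.28 ± 0.22) and the kinases Plk1 (1.14 ± 0.31) and Nek2 (1.13 ± 0.09) were highest. The centromere histone Cenpa (0.01 ± 0.04), the kinesin Cenpe (-0.05 ± 0.62) and the cytokinesis motor Kif23 (-0.08 ± 0.09) were not called. Of 20 promoters of this list, the E2F motif was in 1, the CHR element in 14 and the CCAAT box in 16, and the difference from the replication genes was not tested.

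Markers of cell types moved with the comparison. Of 12 pluripotent cell markers 11 were called higher and 1 (Zfp42) lower, with a median of 1.65, and their summed processed signal was 204204 to 326326 in the null channel against 33202 to 49521 in the heterozygous one. All 14 cardiomyocyte markers were called lower, with a median of -1.58 and sums of 124929 to 197838 against 451322 to 639281. Cardiac markers were therefore present in both groups, but Pln was not well above background in the null channel on any array. All 10 endoderm markers were called lower, with a median of -4.12 and sums of 10142 to 18245 against 254750 to 408462.

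Blood cell markers were called higher in 6 of 7 cases tested, of 10 listed, with sums of 133293 to 176307 against 64535 to 141942. Spi1, a defining factor of blood cells, was not tested, since it was not well above background in either group on any array. Endothelial markers were higher in 6 of 8 and lower in 1, with sums of 14263 to 19852 against 6845 to 12799. Fibroblast and feeder cell markers were higher in 1 of 10 and lower in 5, with sums of 36096 to 60794 against 56214 to 132199. The part of these cell types in the ratios of the replication genes was not tested.

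The authors' processed values gave the same direction for every replication gene they could be read for. They come from the same scans, and replicate 3 was turned to match them, so this is no separate check of the direction. Mcm6 has a missing value there, and of the other 42 genes 37 were called higher and 0 lower, with a median of 0.92. Cdc45, Gins3, Gins4, Rfc2 and Rfc4 were the 5 not called. Prim2, Mcm3, Dut and Gins1 were the highest 4 in both processings. How those values were normalized is unstated.

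**Figure D5:**
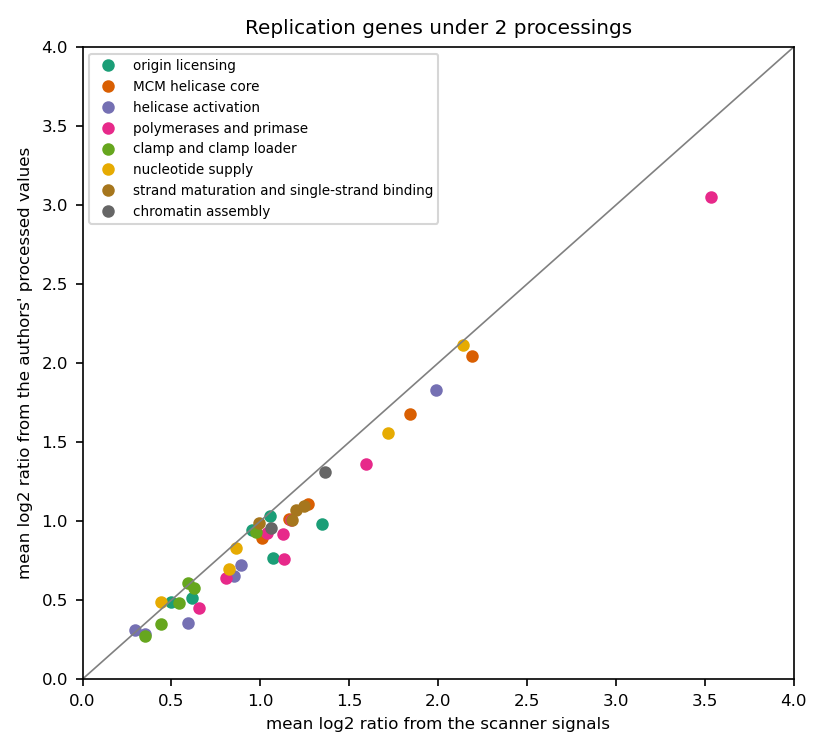
Mean log2 ratio of 42 replication genes from the authors' processed values (y axis) against that from the scanner signals (x axis), coloured by role, with the line of equal values. Most points lie a little below the line and none lies below 0, and Prim2 is the point at the upper right.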

How the data were processed

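The median spot and local background signals were deposited as intensity values in each channel, extracted by the authors with Agilent Feature Extraction (11.5.1.1 per the file headers, 8.5.1.1 per the submitters' processing notes) on array design 026655, annotated on mm9 per the file headers. The authors also deposited a log10 ratio (Cy5 against Cy3, from background-subtracted and dye-normalized signals), per the file headers. The authors' processed values behave as log2 ratios against the scanner ratios (r 0.885, 0.945 and -0.940 with log2 Cy5 over Cy3 on replicates 1, 2 and 3; column medians 0.086, -0.08 and 0.053; 16, 15 and 3 missing); their normalization and centring are not given in the sources used here. Per the file headers, other columns used mark spots as saturated, outliers or well above background.

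Background correction by normexp (offset 50) and loess within each array were run on the median signals in limma 3.58.1 (R 4.3.3), and spots of a probe were averaged. Where a local background was marked as an outlier, the median of that channel's unmarked backgrounds was used instead. Of 39429 probes, 28025 had 1 RefSeq symbol, 11404 none and 0 several. Probes entered the test when every array had them well above background in 1 or both channels, and a gene was its brightest tested probe. The mean log2 ratio was tested against 0 by limma (lmFit and eBayes, 8.65 degrees of freedom), Benjamini-Hochberg adjusted over 14710 genes. Each array is its own pair, the p-values measure the spread between 3 arrays, and their number limits the precision. The script was tested on simulated data.

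Genes and lists were chosen with earlier results of these data known. Genes given with the value on each array are the highest and lowest of each role, any not called higher and the 10 highest of all; Mcm4, Cdc45 and Tyms, 3 of the most variable, were added after their values were seen. Of each pathway list the 3 highest and 3 lowest are named. Of these, Pold4, Ccne1 and Rb1 were singled out after their values were seen. Pole4, Rbl1, Cdk2, Cdc7, E2f4, E2f5, E2f7, E2f8, Orc3, Orc4, Orc5 and Rpa3 were added, also after their values were seen. Zfp42 and Pln were named for standing apart from their marker lists. Alternatives are given in the closing section.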

Additional observations from a re-analysis of the deposited data

How the results depend on the processing

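The count of replication genes called higher was 42, and 37 to 43 in every alternative but one, with 0 called lower in each; under the dyes as labelled for replicate 3 it was 0. The counts over all genes were less stable: 3034 higher and 2019 lower under median centring, 2661 and 2254 with marked backgrounds kept, and 0 and 0 with replicate 3 as labelled. Median centring gave medians of 1.51 for MCM, 0.82 for clamp, 1.11 for nucleotide supply, 1.42 for maturation, 1.47 for chromatin assembly and 1.25 for all 43 genes. Keeping marked backgrounds gave 0.74 for licensing, 0.95 for polymerases and 0.87 for all 43. The authors' values gave 0.86 for licensing and 0.92 for polymerases, and the Feature Extraction log ratio gave 1.16 for nucleotide supply. Replicate 3 as labelled gave 0.39 for licensing, 0.62 for MCM, 0.28 for helicase activation, 0.44 for polymerases, 0.12 for clamp, 0.60 for nucleotide supply, 0.32 for maturation, 0.25 for chromatin assembly and 0.36 for all 43. In that setting replicate 3 had the opposite sign to replicates 1 and 2 for each of the 43 genes. Leaving out 1 replicate in turn gave 0.88 to 1.07 for nucleotide supply, the high value without replicate 3, and -0.29 to 0.31 for Cenpe, which was called higher without replicate 3. Samhd1 was at -0.24 with probes averaged. The cause of these changes was not tested. Over the other alternatives (replicate 3 as labelled left aside), single replication genes kept their call in 493 instances, lost it in 18 and gained it in 4 (Rfc2). Calls were lost for Cdc45, Gins3, Gins4 and Rfc3 under median centring, Cdc45 and Gins4 with marked backgrounds kept, Gins3 and Gins4 under a fixed slide block, and Gins4 in Feature Extraction's own ratio (limma adjusted p 0.052). Marked backgrounds also took Orc2 to 0.70 and Cdc45 to 0.33. Median centring took Orc6 to 0.81, Rfc1 to 0.90, Rfc4 to 0.74, Rrm1 to 0.70, Gins3 and Gins4 to 0.58 and Rfc2 to 0.59. The Feature Extraction log ratio of Cdc45 was 0.91, and Rfc2 without replicate 3 was at 0.13. Within the slide of replicates 2 and 3, 42 were called higher. A random slide block could not be fitted with 3 arrays; a fixed block, chosen after seeing the data, gave 40.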
